A study of Mus musculus with 4 samples.

Results

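AP-1 and Egr1 are transcription factors made by immediate early genes, and 6 of these genes are described here: Fos, Fosl1 and Fosl2 of the Fos family, Jun and Junb of the Jun family, and Egr1. Each gene was given a window of the mouse build mm9 of 240 kb, or 270 kb for Fosl2, which reaches about 120 kb to each side of the gene start. A peak belongs to a gene's window when it overlaps the window by at least 1 bp. The windows held 18 peaks in all: 5 of the 4031 peaks of control replicate 1, 13 of the 7112 of control replicate 2, 0 of the 57 of EGF replicate 1 and 0 of the 20 of EGF replicate 2. The peaks are ChIP-seq peaks of ARID1A, a DNA-binding subunit of the SWI/SNF complexes that move nucleosomes, in 266-6 cells, an established mouse pancreatic acinar line. All cells were kept without serum for about 14 h. The EGF group then received epidermal growth factor (EGF) at 40 ng/ml for 8 h, and the control group received 0.1% bovine serum albumin, each with 2 libraries. The labels do not say whether a group's libraries are from separate cultures, so the spread between them may be technical. The p-values count arrangements of these libraries and do not reach beyond them.

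Immediate early genes are switched on by growth factors without new protein synthesis, mainly through the ERK kinases and the serum response factor, and their messages usually decay soon after the first pulse. Fos and Jun proteins pair through leucine zippers to form AP-1, which binds DNA at AP-1 sites; Jun proteins can pair with each other, whereas Fos proteins need a Jun partner. Egr1 is a zinc finger protein that binds GC-rich sites. In the acinar pancreas, EGF receptor signalling and AP-1 activity are known to accompany the change of acinar cells towards a duct-like state, and SWI/SNF complexes are known to work with AP-1 at enhancers.

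In control cells, ARID1A peaks were listed in the windows of 5 of the 6 genes, all but Fosl2. Of 10496 tiles of 240 kb laid over the genome, 34.0% had a peak of either control list. Control replicate 1 listed 4 peaks over the 5 AP-1 genes and control replicate 2 listed 10, and Egr1 had 1 and 3. The 18 peaks made up 14 separate sites, of which 4 were in both control lists: 1 each in the windows of Fosl1, Jun, Junb and Egr1. Another 9 sites were in control replicate 2 alone and 1 in control replicate 1 alone. A shared site was thus found for 4 of the 6 genes, against 17.7% of the tiles, and the remaining sites rest on a single library. The tiles include stretches with few genes, so their shares are a description of the windows and no test. Peaks were not assigned to genes, since such wide windows may hold other genes too. In the order of protein-coding genes of RefSeq GRCm38.p6, Fos is followed by Jdp2 and Batf, both AP-1 family genes themselves. Junb stands between Prdx2 and Hook2, and Jun between Mysm1 and Fggy. Distances to these neighbours were not measured, so whether any of them lies within a window was not determined.

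**Figure D1:**
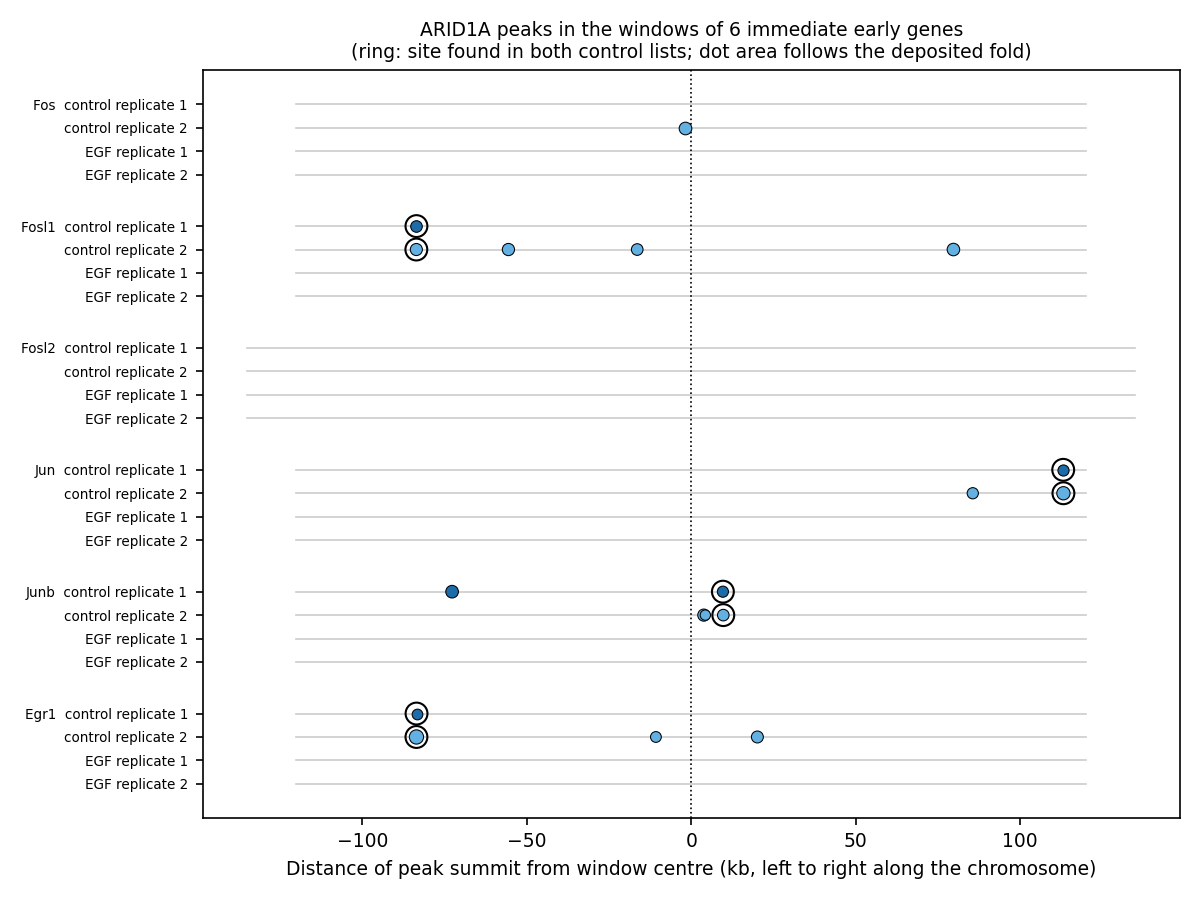
Peak summits by their distance from the window centre in kb, with 1 line per gene and library; dot area follows the deposited fold, and rings mark sites in both control lists. The control libraries carry 5 and 13 dots, Fosl2 has none, Fos has 1 beside the centre in control replicate 2, and the EGF lines are all empty.

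The Fos window, chr12:86695000-86935000, had 0 peaks in control replicate 1, 1 in control replicate 2 and 0 in each EGF list. Fos is the founding partner of AP-1, induced within minutes of EGF in many cells. Its single peak was the closest to a window centre of all 18, at chr12:86812965-86813263, with the summit 1.9 kb to the left of the centre. It had a fold of 7.09, the deposited ratio over the local background at the summit, from 17 ChIP reads at the summit. In control replicate 1 the nearest peak was 1.3 Mb from this centre. The Fos peak therefore has no support from the other control library, and since the centre is only about the gene start, the side of the start on which it lies was not determined.

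The peaks closest to a window centre are those of Fos and Junb, so the promoters of these genes are shown, as the 250 bases before the start in RefSeq. They come from build GRCm38.p6, not from the mm9 of the peaks, and positions of the builds were not converted. Fos lies on the plus strand, at chr12:85473640-85473889 in that build, and Junb on the minus strand, at chr8:84978749-84978998. Capitals mark TGACG, the first letters of the cAMP response element, on either strand, and the TATA box TATAAA.
Fos: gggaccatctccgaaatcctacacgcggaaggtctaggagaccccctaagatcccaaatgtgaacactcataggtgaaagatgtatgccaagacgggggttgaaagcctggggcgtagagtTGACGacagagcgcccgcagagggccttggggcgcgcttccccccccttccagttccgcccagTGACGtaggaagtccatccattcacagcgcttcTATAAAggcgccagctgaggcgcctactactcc
Junb: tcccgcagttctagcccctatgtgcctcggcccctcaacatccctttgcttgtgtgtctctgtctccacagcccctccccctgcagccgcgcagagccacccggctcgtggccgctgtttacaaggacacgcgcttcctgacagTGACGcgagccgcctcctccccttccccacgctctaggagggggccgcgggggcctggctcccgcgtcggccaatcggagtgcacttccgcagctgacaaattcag
The Fos promoter holds TGACG at 129 and at 66 bases before the start and TATAAA at 33 bases before it. The Junb promoter holds TGACG once, at 106 bases before the start. These short motifs, chosen after the sequences were seen, occur in 17.8% (TGACG) and 12.4% (TATAAA) of the 32851 RefSeq promoters of the same length.

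The motifs of the factors themselves were searched on both strands in the promoters of the 4 AP-1 genes with an entry, Fos, Fosl2, Jun and Junb. The AP-1 site TGANTCA, the full cAMP response element TGACGTCA, the Egr site GCGTGGGCG and the CArG box of the serum response factor each had 0 matches in all 4. Over all promoters they occurred in 6.75%, 1.55%, 0.536% and 1.47%. The search covered exact letters in 250 bases only, so it says nothing of variant sites or of binding further away. Which of the 18 peaks lie in a promoter was not determined.

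The Fosl1 window, chr19:5330000-5570000, had 1 peak in control replicate 1 and 4, the most of any gene in 1 list, in control replicate 2, and 0 in each EGF list. Fosl1 encodes Fra-1, an AP-1 partner that accumulates under lasting ERK activity. The shared site lay 83.5 kb to the left of the centre, at chr19:5366453-5366652 in control replicate 1 and chr19:5366354-5366630 in replicate 2, with an overlap of 178 bp. Its fold was 5.95 in the former and 6.47 in the latter (6.21 ± 0.369, SD, n = 2) from 16 and 17 reads. These values were alike, and among the 4 shared sites only the Junb site had a smaller spread of fold.

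The other 3 Fosl1 peaks were in control replicate 2 alone, 55.6 and 16.4 kb to the left of the centre and 79.7 kb to the right, each with 18 reads at the summit. The strongest by score was chr19:5529567-5529894, with a fold of 6.96 (score 66, where the score is 10 times the −log10 q). The others had folds of 6.62 and 6.01. All 3 had slightly more reads than the shared site, with 16 and 17. At Fosl1 the reads at the summit thus did not separate the site that recurred from those that did not, on a small difference.

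Fosl2, which encodes Fra-2, another Fos family partner, had 0 peaks in all 4 lists in its window, chr5:32310000-32580000. The nearest peaks lay outside it, 195 kb to the left of the centre, at chr5:32249732-32250030 (control replicate 1) and chr5:32249625-32250014 (control replicate 2), with folds of 4.46 and 5.32. To the right, the next peak was 761 kb away in both control lists. The Fosl2 gap between listed peaks spanned 956 kb in each control list. Empty stretches were common on chromosome 5: of 619 tiles of 240 kb, somewhat shorter than the Fosl2 window, 57.8% had no peak of either control list.

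Jun encodes c-Jun, the main partner of Fos proteins. Its window, chr4:94595000-94835000, had 1 peak in control replicate 1, 2 in control replicate 2 and 0 in each EGF list, none nearer than 85.6 kb to the centre. The shared site was at the right end of the window, 113.0 kb from the centre, at chr4:94827861-94828473 (control replicate 1) and chr4:94827815-94828328 (control replicate 2). With widths of 613 and 514 bp these were the widest peaks of the 18, against a median of 288 bp in each whole control list. The fold was 5.49 and 7.82 (6.65 ± 1.65, SD, n = 2), from 17 and 22 reads. The second Jun peak, chr4:94800542-94800820, was in control replicate 2 alone, 85.6 kb to the right of the centre, with a fold of 5.6 from 15 reads.

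Junb, which encodes a Jun protein that often restrains c-Jun, had peaks nearer its centre than Jun. Its window, chr8:87380000-87620000, had 2 peaks in control replicate 1, 3 in control replicate 2 and 0 in each EGF list. The shared site lay 9.63 and 9.76 kb to the right of the centre, at chr8:87509477-87509676 (control replicate 1) and chr8:87509582-87510046 (control replicate 2), with folds of 5.50 and 5.94 (5.72 ± 0.309, SD, n = 2). Its overlap was the shortest of the shared sites, 95 bp or 47.5% of the shorter peak, and its summits were 120 bp apart, so it is not shared when 50% of both peaks must overlap.

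Control replicate 2 also had a close pair of Junb peaks that control replicate 1 lacked. They were chr8:87503690-87503898, 3.84 kb to the right of the centre with a fold of 6.54, and chr8:87504160-87504399, 4.3 kb to the right with a fold of 4.72, the lowest of the 18. Control replicate 1 alone listed chr8:87427211-87427417, 72.7 kb to the left, with a fold of 7.07 from 18 reads, the highest fold of its 5 window peaks. Junb was the only one of the 6 genes with a site found in control replicate 1 alone.

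The Egr1 window, chr18:34900000-35140000, had 1 peak in control replicate 1, 3 in control replicate 2 and 0 in each EGF list. Its shared site lay 83.5 kb to the left of the centre, at chr18:34936382-34936664 (control replicate 1) and chr18:34936391-34936664 (control replicate 2). The shorter of these peaks lay entirely within the longer. The replicates nonetheless differed most here: the fold was 5.06 and 9.0 (7.03 ± 2.78, SD, n = 2), from 14 and 25 reads. The same site was the weakest window peak of control replicate 1 and the strongest of all 18 in control replicate 2. Nearer the centre, control replicate 2 alone had chr18:35009141-35009450, 10.7 kb to the left with a fold of 5.17, and chr18:35039859-35040281, 20.1 kb to the right with a fold of 6.32.

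Recurrence of the window peaks in the other control list had wide intervals that included the value of the whole lists. Of the 5 window peaks of control replicate 1, 4 (80.0%, exact Clopper-Pearson 95% interval 28.4% to 99.5%) were found again in control replicate 2, against 71.3% of its whole list. In the other direction, 4 of 13 (30.8%, interval 9.09% to 61.4%) did so, against 40.4%. Intervals cover counting error only. At all 4 shared sites the fold was higher in control replicate 2, and over their whole lists the peaks shared by the control libraries had a median fold of 6.08 in the first and 6.62 in the second. Peaks of the whole lists that were not shared had lower median folds, 5.38 and 5.51 in control replicates 1 and 2.

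The window peaks were of middling strength by score and fold. In control replicate 1 the median of their score percentiles within the list was 43.3, from 20.3 (Egr1) to 66.0 (Junb), and 1 of 5 was above the list's median. In control replicate 2 it was 62.9, from 13.0 (Junb) to 91.3 (Egr1), and 9 of 13 were above it. Their median fold was 5.50 and 6.47 in control replicates 1 and 2, against 5.84 in each whole list. Reads at the summit ran from 14 to 18 in control replicate 1 and from 12 to 25 in control replicate 2, or 10.6 to 22.0 times the genome-wide mean of the library. The median of the window peaks was 16 and 17 reads in control replicates 1 and 2, below the 19 and 18 of the whole lists. Their median local background was 1.19 and 1.22 times the genome-wide background, also below the 1.35 and 1.40 of the whole lists. The highest score among the 18 was 103, at Egr1, while the lists reached 520 and 543.

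**Figure D2:**
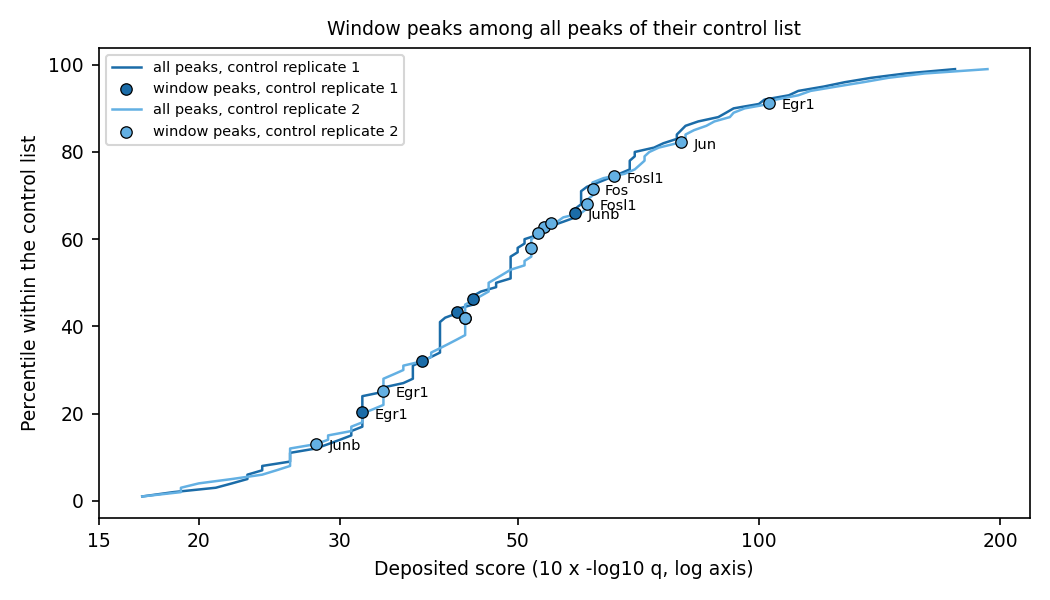
Percentile of each window peak within its control list against its deposited score (log axis), with lines for all peaks of the lists between percentiles 1 and 99. The 5 dots of control replicate 1 run from 20.3 to 66.0 and the 13 of control replicate 2 from 13.0 to 91.3, so none lies above percentile 91.3.

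Peaks were more frequent in these windows than in the tiles in each control list alone as well. A peak of control replicate 1 was in 4 of the 6 windows (66.7%), against 22.7% of tiles, and one of control replicate 2 in 5 of 6 (83.3%), against 31.1%. Per Mb, the windows held 3.4 and 8.84 peaks in control replicates 1 and 2, and the tiles 1.59 and 2.81. This holds for the wide windows: with 60 kb each side, 1 and 4 of the 6 windows held a peak of control replicates 1 and 2. Tiles of that shorter length were not laid.

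The chromosomes of the genes differed in this background. On chromosome 18, 2.69% of 335 tiles had at least the 3 peaks that Egr1 had in control replicate 2. For Junb on chromosome 8 this share was 6.02% of 532 tiles, and for Fosl1 with its 4 peaks on chromosome 19 it was 7.92% of 240. For Fos on chromosome 12 and Jun on chromosome 4 it was 20.8% and 21.6%. Adjacent peaks are not independent, and each share is a description of control replicate 2 alone.

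**Figure D3:**
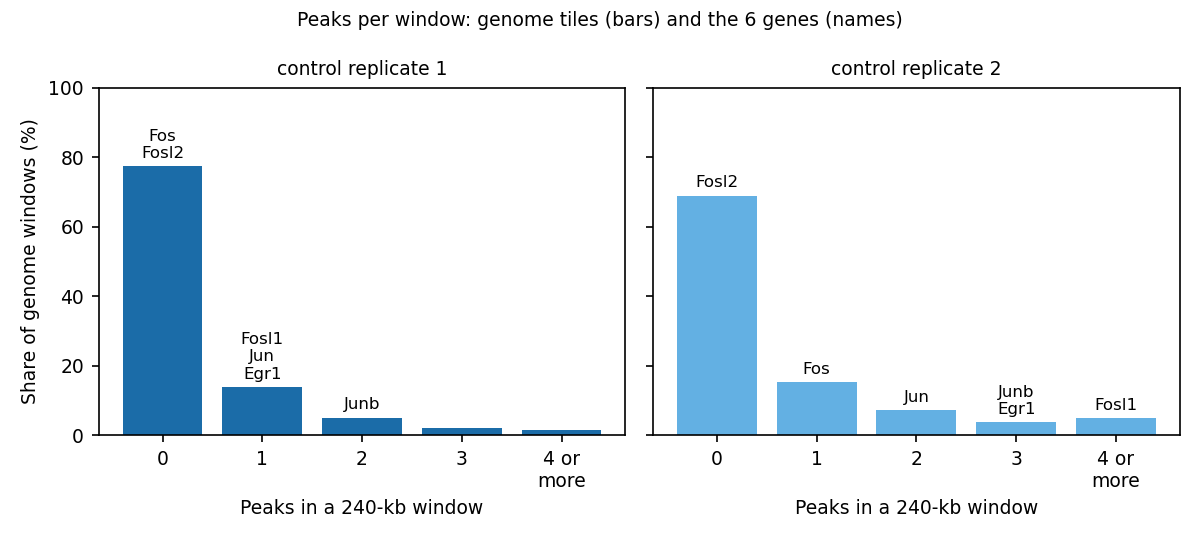
Share of 240-kb genome tiles in percent by the number of peaks they hold, for each control library, with gene names above the bar of their own count. Tiles without a peak make up 77.3% and 68.9%; Fosl2 stands over that bar in both panels, Fos only in control replicate 1.

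With EGF, no ARID1A peak was listed in any of the 6 windows. The number went from 5 and 13 in the control libraries (9.0 ± 5.66, SD, n = 2) to 0 and 0, and the length under peaks from 1503 and 4031 bp (2767 ± 1790, SD, n = 2) to 0 and 0. Neither EGF library thus came near a control library in number or length. For both, and for the number of windows with a peak, the two-sided exact permutation test gave p = 0.33, the smallest value that 2 libraries against 2 can give, so this design cannot reach 0.05. None of the 5 and 13 control peaks overlapped an EGF peak, which allows shares of up to 52.2% and 24.7% (Clopper-Pearson). Over the whole lists the share was 1.49% and 0.844%, so that 0 of 5 and 0 of 13 are near the background. A tile had an EGF peak in 0.543% and 0.191% of cases in EGF replicates 1 and 2, and an empty window with EGF was therefore the rule across the genome.

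The EGF peaks nearest to these genes were megabases away. For Fosl1 the nearest was 48.0 Mb from the centre in both EGF lists, and for Fosl2 it was 10.4 Mb in both. For Jun and Junb, EGF replicate 1 had its nearest peak at 7.4 and 14.5 Mb, and EGF replicate 2 had none on those chromosomes. Neither EGF list had a peak on the chromosomes of Fos and Egr1.

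The lists of the groups differed in their input and in their weakest peaks. The ChIP depth recovered from the deposited values was alike in the groups, at 1.18 and 1.14 control reads and 1.06 and 1.23 EGF reads per 200 bp of genome. The control lists were called against an input of 0.771 reads per 200 bp and the EGF lists against 0.506. The weakest peak of the control lists had a −log10 p of 4.43 and 4.25, and that of the EGF lists 7.07 and 8.00. For control peaks the smallest −log10 q was 1.31 and 1.38, and EGF peaks began at 2.07 and 2.47. Input depth and treatment cannot be told apart, since each group has its own input value.

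Each window peak was therefore recomputed at the read scaling and input of the EGF lists, with its reads and local input kept in proportion to the genome-wide means. None of the 5 peaks of control replicate 1 then reached the weakest peak of either EGF list; the nearest was the peak left of Junb, at a −log10 p of 7.05. Of the 13 peaks of control replicate 2, 5 reached that of EGF replicate 1: Fos at 7.17, the Fosl1 peaks 55.6 and 79.7 kb from the centre at 7.46 and 7.85, the shared Jun site at 8.49 and the shared Egr1 site at 11.1. The Jun and Egr1 sites alone also reached that of EGF replicate 2. These 2 sites did not do so with the reads of control replicate 1, at 5.74 and 4.2.

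For comparison, 33.0% and 34.0% of all peaks of control replicates 1 and 2 reached the weakest peak of EGF replicate 1, and 20.6% and 21.5% that of EGF replicate 2. No shared site in these windows reached either from the reads of both control libraries. The weakest EGF peak is itself part of the EGF result, since it can move with how few peaks were listed, and the threshold the authors called at may lie below it. Against the higher of the weakest control peaks, a −log10 p of 4.43, 16 of the 18 window peaks still reached the bound at the EGF settings, 4 of 5 from control replicate 1 and 12 of 13 from control replicate 2. The others were the Egr1 site with the reads of control replicate 1, at 4.2, and the Junb peak 4.3 kb from the centre, at 4.35. Of the whole control lists, 86.5% reached it in each. How many of the control peaks reach a bound at the EGF settings therefore depends on the bound. The number runs from 5 to 16 of 18 for EGF replicate 1 and from 2 to 16 of 18 for EGF replicate 2. The 18 peaks are 14 sites, as each of the 4 shared sites counts in both control libraries. These counts are therefore not numbers of peaks that an EGF list could have held. The peak lists do not give the EGF reads in these windows.

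**Figure D4:**
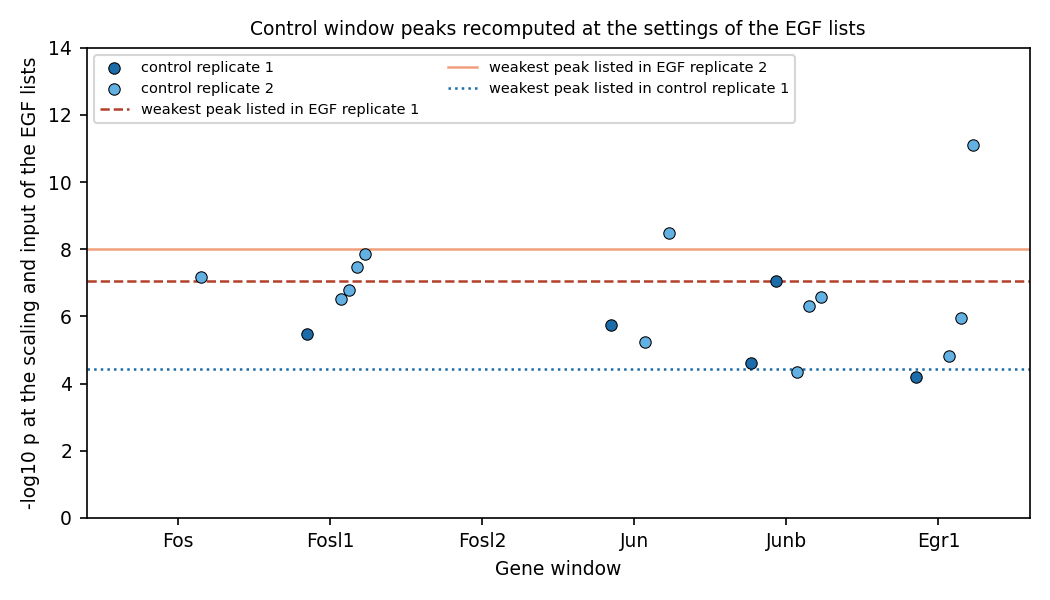
The −log10 p that each control window peak has at the read scaling and input of the EGF lists, by gene, with lines at the weakest peak of each EGF list and at the higher of the weakest control peaks. The 5 peaks of control replicate 1 lie below both EGF lines, 5 of the 13 of control replicate 2 lie above the line at 7.07, the Jun and Egr1 sites lie above the line at 8.00, and 16 of the 18 lie above the control line at 4.43.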

How the data were processed

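ARID1A ChIP-seq of 266-6 cells was deposited as 1 peak list per library, 4 in all. Per the submitters' processing notes, the tools were MACS2 2.1.1.20160309.0, deepTools 3.0.2, Bowtie2 2.3.4.2 and SAMtools, on mm9, with options not given in the sources used here. Per peak, each list as deposited by the authors holds a score (10 times the −log10 q, rounded down, in 100% of peaks), a fold (a ratio over local background), and the deposited −log10 p and −log10 q. Positions, width and summit are as deposited, counted from 1.

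The number of reads under a summit and its local input were recovered from fold and −log10 p, with 1 scaling factor per library, the Poisson tail and input counted in 1 kb and 10 kb windows per 200 bp; every peak of the 4 lists had exactly 1 solution, differing from the deposited −log10 p by at most 1.33e-05. The method was tested on simulated data built with the same formulas, which checks the calculation and not the assumed model. The simulated peaks did not go as low in reads as the control peaks with the fewest reads. The window sizes are inferred from the values. Tiles ran from the first to the last peak of chromosomes 1 to 19 and X. Python 3.11.15, scipy 1.17.1 and pandas 2.3.3 were used.

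Groups were compared by exact two-sided permutation over the 6 assignments of the libraries. All 6 genes are named, with every peak found in both control lists and, of the others, at least the highest by score per window and list. The genes, lists and tests were chosen with earlier results of these data known; the recovery of reads, the tiles by chromosome and the values at EGF settings were added after the data were seen. The planned look at other immediate early genes, such as Fosb and Egr2, and the sequence and gene part under each peak were not analysed here, as no mm9 genome or annotation was used. Promoter entries matched 4 of the 6 symbols (Fos, Fosl2, Jun, Junb).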

Additional observations from a re-analysis of the deposited data

How the results depend on the processing

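In all, 7 results were recomputed in 47 ways, of which 41 left the direction unchanged and the value within 1.5 times the reported value, the counting interval or the spread between control libraries; 6 moved and 0 reversed. The direction of the group differences could hardly change, since both EGF lists held 0 peaks in every setting, windows of 240 kb each side included. Many of the 41 could hardly move either, so their number is no measure of stability. The share also called with EGF was 0 in every setting. Leaving out an EGF library changed no value, and a q of 0.005 removed no window peak. The median distance of the nearest peak to the window centre was 83.5 and 10.7 kb in control replicates 1 and 2, a spread too wide for its alternatives to leave. With windows of 60 kb each side the EGF minus control difference was −4.5 peaks in place of −9.0, −1279.5 bp in place of −2767 bp and −2.5 windows in place of −4.5. In those windows 1 and 8 peaks of control replicates 1 and 2 were left, and 2 of the 9 (22.2%) were in both control lists. Leaving out a library in turn gave −13.0 to −5.0 peaks, −4031 to −1503 bp and −5.0 to −4.0 windows, with no test; control replicate 2, which holds 13 of the 18 peaks, sets most of the mean, and without it the difference was −5.0 peaks and −1503 bp. With 1 p-value bound for all lists, added after the data were seen, 3 and 11 control peaks were left (difference −7.0). That bound was a −log10 p of 8.00, the weakest peak of EGF replicate 2. It was set against the deposited p-values, which keep each list's own scaling and input. At the settings of EGF replicate 2, 0 of 5 and 2 of 13 control peaks reached it.

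The median percentile of window peaks, averaged over the 2 control lists, was 53.1 by score, 53.5 by fold and 29.5 by width. The medians of control replicates 1 and 2 were 43.3 and 62.9 by score, 38.7 and 68.3 by fold, and 12.2 and 46.9 by width. The pooled share of control window peaks found in both lists was 44.4% (8 of 18) and 33.3% when 50% of both peaks had to overlap. With libraries paired by replicate number, the mean difference was −9.0 peaks, −2767 bp and −4.5 windows (exact permutation p = 0.5, the least that 2 pairs allow). These means equal the unpaired differences by construction. The replicate numbers come from the titles alone, and with EGF values at 0 no check of the pairing was possible. The share in both control lists has no value with a control library left out. Every p is the smallest its design can give and says nothing about stability.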
